A study of Mus musculus with 30 samples.

Results

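Hepcidin and the genes that move, store and sense iron were followed in the livers of mice fed 1 of 5 diets that differed in protein source, protein amount and sulfur amino acid content. The genes were chosen by name: the hepcidin genes *Hamp* and *Hamp2*, the BMP-SMAD genes *Bmp6*, *Id1* and *Smad7*, the transferrin receptors *Tfrc* and *Tfr2*, the iron exporter ferroportin (*Slc40a1*), and the ferritin chains *Fth1* and *Ftl1*. Of these 10 genes 9 had a row among the 14173 genes of the count tables and passed the filter on low counts in all 8 comparisons. *Bmp6* was not analysed here.

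All animals were male C57BL6/J mice, and 6 livers of 10 mice per diet were sequenced, each as 1 library. Casein mice ran in on Cas-20% and soy mice on Soy-20% for 2 weeks, were moved to their final diets at 12 weeks of age, stayed on them for 12 weeks and were killed after a 4 h fast (age label 6 months). Cas-20% held 20% casein with 0.57 g methionine and 0.41 g cysteine per 100 g, and Cas-5% held 5% casein with 0.15 g and 0.1 g. Soy-20% held 20% soy protein with 0.22 g of each. Soy-20% + SAA was the same soy level with both amino acids added, to 0.58 g and 0.41 g, and Soy-10% held 11.5% soy protein with 0.13 g of each. The mineral mix, and with it the added iron, was the same in every diet by the study's formulation, while iron that came with the protein sources was not given. The livers are whole tissue, so fewer cells of a type and less RNA per cell cannot be told apart.

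Hepcidin is a peptide hormone made by hepatocytes that binds ferroportin and causes its degradation, and so limits the release of iron from macrophages, enterocytes and hepatocytes. In hepatocytes its gene is switched on by iron through BMP6 and BMP2 from the sinusoidal endothelium, the co-receptor hemojuvelin and SMAD proteins, and by interleukin 6 through STAT3. Mice carry a second copy, *Hamp2*, beside *Hamp*, and *Hamp* is the copy known to lower circulating iron. Ferritin and transferrin receptor 1 are set mainly after transcription, by the iron regulatory proteins that bind iron-responsive elements in their mRNAs, so the mRNA levels given here are only a part of that control.

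Total counts ran from 7694015 to 14565542 per library (median 10803734.5), and no 2 libraries of a diet agreed within sampling noise. Soy-20% + SAA livers 3 to 6 stood apart, with expression that rose by 0.0505 to 0.184 log2 units for each 10% more GC in the last 200 transcript bases, against -0.0572 to 0.0296 in the other 26 livers. Single-gene calls between diets that rest on Soy-20% + SAA are therefore also given without these 4 livers and with the GC trend in the model. Without them only 2 Soy-20% + SAA livers remain, so a call can be lost through the smaller number alone. The hepatocyte genes summed to 705870 to 943100 normalised counts in every liver. In 1 Soy-10% liver the acinar pancreas genes summed to 7474 normalised counts, against at most 629 in any liver of the other 4 diets.

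The promoters of *Hamp* and *Hamp2* are shown because these neighbouring copies differed in their response to casein restriction. They lie 19351 bases apart on the minus strand of chromosome 7 (GRCm38, *Hamp* chr7:30942368-30944032, *Hamp2* chr7:30922372-30924681, counted between their 5′ ends). The 250 bases before each start site are from RefSeq (GRCm38.p6, minus strand, chr7:30944030-30944279 and chr7:30924182-30924431). The RefSeq start of *Hamp2* lies inside the GENCODE span given above, downstream of the 5′ end from which the distance was counted. Capitals mark the letters GGCGCC of the BMP response element in *Hamp*, the aligned 6 bases in *Hamp2*, and the match to TTCNNNGAA, the STAT motif.
Hamp: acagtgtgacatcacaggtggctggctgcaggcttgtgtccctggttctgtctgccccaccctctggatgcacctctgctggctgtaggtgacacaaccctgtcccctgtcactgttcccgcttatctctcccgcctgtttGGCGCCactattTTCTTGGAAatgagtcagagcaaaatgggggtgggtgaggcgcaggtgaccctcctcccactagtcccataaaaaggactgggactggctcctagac
Hamp2: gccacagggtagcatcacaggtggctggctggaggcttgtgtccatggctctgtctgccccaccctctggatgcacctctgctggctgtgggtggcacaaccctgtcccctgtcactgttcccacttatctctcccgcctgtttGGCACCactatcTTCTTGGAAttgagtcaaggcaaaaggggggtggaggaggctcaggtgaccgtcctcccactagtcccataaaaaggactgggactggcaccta
The windows were identical at 227 of 247 aligned bases (91.9%). One of the differing bases falls in the element, where *Hamp* reads GGCGCC 109 bases before the start and *Hamp2* carries G4A, counted from 1 at the element's 5′ end. The STAT motif was present in both, 97 bases before the start in *Hamp* and 94 in *Hamp2*. Both motifs were searched on both strands of 32851 promoter windows of 250 bases, and GGCGCC occurred in 9.59% and TTCNNNGAA in 7.02% of them. Of the 7 genes with a promoter entry, only *Tfrc* held another match, GGCGCC 89 bases before a start. A match of letters is a description of the sequence and not a measured site.

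*Hamp*, the iron-regulating copy, was among the most highly counted of these genes and differed little between the casein diets. On Cas-20% it ran from 10566 to 26889 normalised counts (median 13864), and on Cas-5% from 7431 to 21995 (median 17478). The ranges of the casein diets overlapped nearly in full, and the log2 fold change was 0.03 ± 0.25 (SE, n = 6 and 6; 95% interval -0.45 to 0.52; edgeR quasi-likelihood test with Benjamini-Hochberg adjustment over all genes, adjusted p = 0.94). Soy-20% livers held 7842 to 27683 (median 18441), Soy-20% + SAA livers 9473 to 14148 (median 11784) and Soy-10% livers 10431 to 27184 (median 17975). Over the 5 diets *Hamp* did not pass the test (edgeR adjusted p = 0.24).

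*Hamp* was higher on Soy-10% than on Soy-20% + SAA, where the narrowest of the 5 ranges was found. The log2 fold change was 0.63 ± 0.19 (SE, n = 6 and 6, edgeR adjusted p = 0.035), and 4 of 6 Soy-10% livers lay above every Soy-20% + SAA liver. This call was lost with the GC trend in the model (0.65, edgeR adjusted p = 0.17), without Soy-20% + SAA livers 3 to 6 (0.63, edgeR adjusted p = 0.28), with all 30 livers in the fit (edgeR adjusted p = 0.075), and without any 1 of Soy-20% + SAA livers 5 or 6 or Soy-10% livers 1, 3, 4 or 6 (edgeR adjusted p up to 0.081). Against Soy-20% the Soy-10% difference was 0.05 ± 0.25 (edgeR adjusted p = 0.96).

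*Hamp2*, the neighbouring copy, carried the strongest diet difference among these genes. Cas-20% livers held 967 to 3130 normalised counts (median 1404), and Cas-5% livers held 31.7 to 222 (median 101). Every Cas-5% liver lay below every Cas-20% liver. The fold change was 15.5-fold lower on Cas-5% (log2 fold change -3.96 ± 0.36, SE, n = 6 and 6; edgeR adjusted p = 8.2e-07). The lowest Cas-5% library still held 33 reads of the gene.

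**Figure D1:**
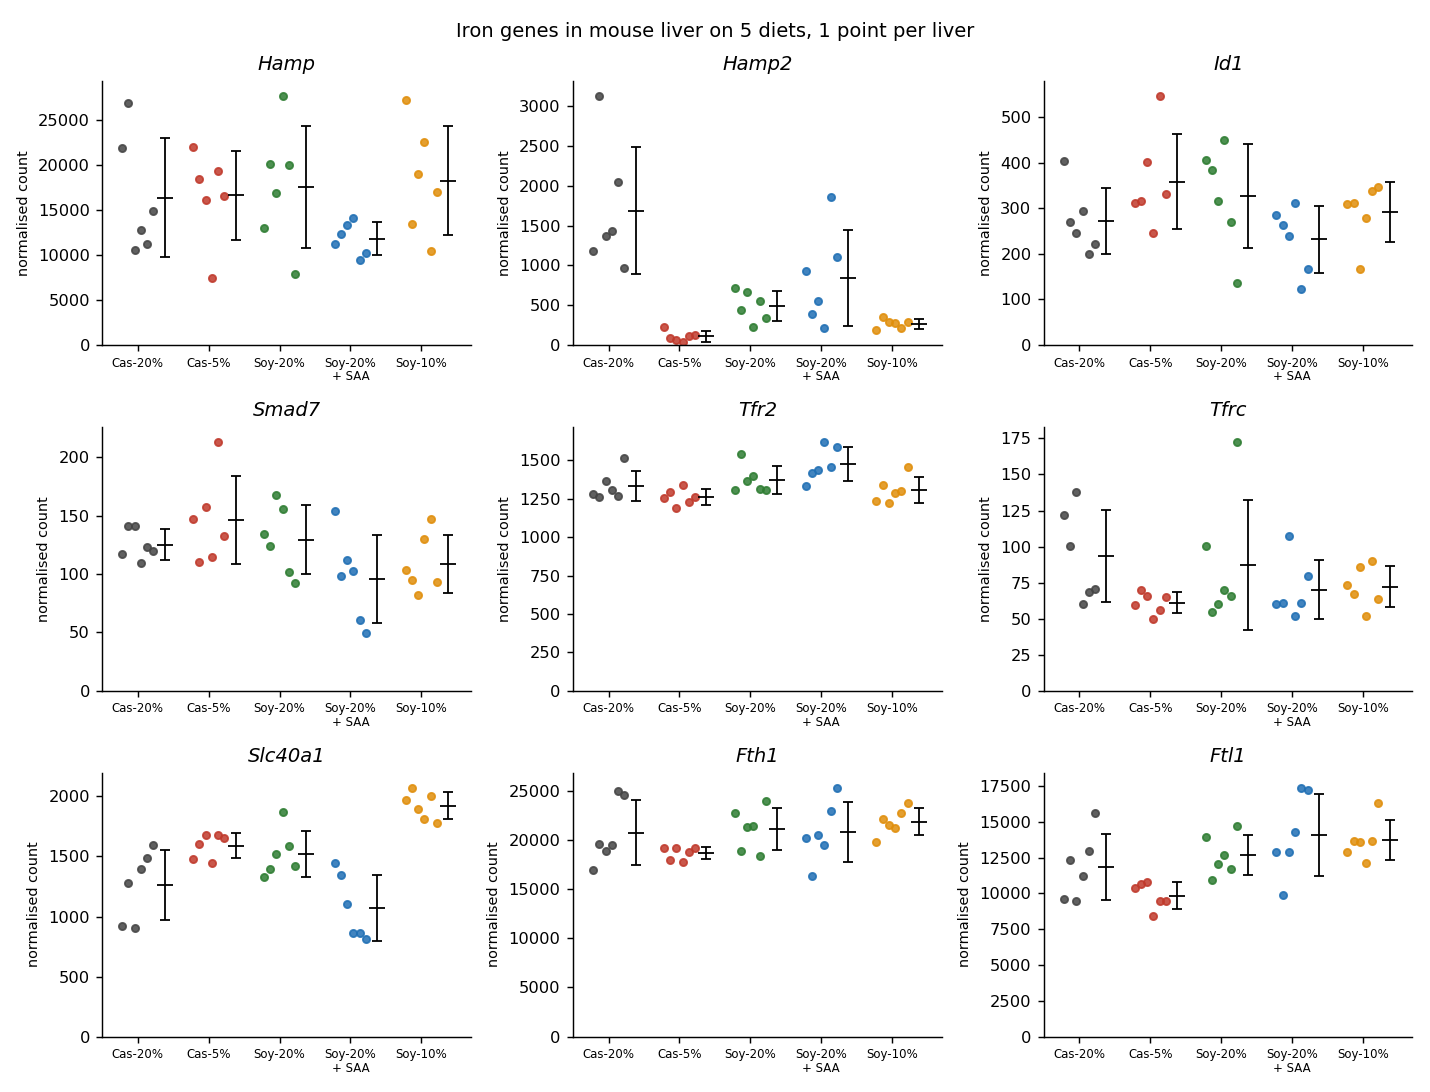
Normalised counts of the 9 iron genes (vertical axes, each from 0) in each liver of the 5 diets (horizontal axes), 1 point per liver, with the mean and SD of 6 livers in black beside the points. The Cas-5% points of *Hamp2* sit between 31.7 and 222, below all Cas-20% points, while the *Hamp* points of those diets overlap.

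The soy diets held intermediate amounts of *Hamp2*. Soy-20% livers ran from 231 to 718 (median 497), Soy-20% + SAA livers from 214 to 1858 (median 738) and Soy-10% livers from 186 to 354 (median 282). Soy-10% was lower than Soy-20% + SAA by a log2 fold change of -1.66 ± 0.39 (SE, n = 6 and 6, edgeR adjusted p = 0.013), with 2 of 6 Soy-10% livers below every Soy-20% + SAA liver. It was -1.32 without Soy-20% + SAA livers 3 to 6 (edgeR adjusted p = 0.014) and -1.20 with the GC trend in the model, where the call was lost (edgeR adjusted p = 0.18). Against Soy-20% it was -0.88 ± 0.23 and did not pass (edgeR adjusted p = 0.092, and 0.021 without Soy-20% liver 4, the lowest of its diet).

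By their means the diets ordered for *Hamp2* as Cas-20% (1690 ± 794, SD, n = 6), Soy-20% + SAA (841 ± 598), Soy-20% (492 ± 189), Soy-10% (267 ± 61.4) and Cas-5% (108 ± 64.9). Of the neighbours in that order only Soy-10% and Cas-5% passed the test of all genes, with Soy-10% higher by 1.29 ± 0.28 on the log2 scale (n = 6 and 6, edgeR adjusted p = 0.0059, and 0.052 with all 30 livers in the fit). Soy-20% + SAA and Cas-20%, the controls matched in sulfur amino acids, differed by -1.01 ± 0.42 (95% interval -1.84 to -0.18, edgeR adjusted p = 0.15). Soy-20% + SAA and Soy-20% differed by 0.77 ± 0.42 (-0.054 to 1.59, edgeR adjusted p = 0.28), and the interval of Soy-10% against Soy-20%, given above, was -1.32 to -0.43.

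The fall of *Hamp2* was larger for casein than for soy. The casein log2 fold change less the soy one, with Soy-20% + SAA as the soy control, was -2.31 ± 0.57 (SE, n = 6 livers in each of 4 diets, edgeR adjusted p = 0.014), and it was -3.08 with Soy-20% as the control (edgeR adjusted p = 8.8e-05). For *Hamp* the same difference was -0.60 ± 0.34 (edgeR adjusted p = 0.27). Over the 5 diets *Hamp2* had an edgeR adjusted p of 4.8e-08. The restriction steps differed in size. Protein fell from 20% to 5% for casein and from 20% to 11.5% for soy. Methionine fell from 0.57 g to 0.15 g per 100 g for casein and from 0.58 g to 0.13 g with Soy-20% + SAA as control. With Soy-20% as control it fell only from 0.22 g to 0.13 g. Protein source and size of the step therefore cannot be told apart here.

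Since reads were taken at transcript 3′ ends, about 1 per transcript whatever its length, the reads of the copies can be set side by side within a liver. *Hamp2* gave 9.78% ± 3.77 of the *Hamp* and *Hamp2* reads on Cas-20% (SD, n = 6; 5.12% to 15.5%) and 0.606% ± 0.228 on Cas-5% (0.409% to 0.998%). The share was 7.05% ± 5.5 on Soy-20% + SAA, 3.14% ± 1.57 on Soy-20% and 1.60% ± 0.642 on Soy-10%. Within a liver this share does not depend on library size, and its casein ranges did not overlap. The transcripts of the copies were identical at 388 of 410 aligned bases (94.6%), and 60 of 361 windows of 50 bases in *Hamp* (16.6%), or 13 of 336 of 75 bases (3.87%), occurred unchanged in *Hamp2*. With up to 2 mismatches allowed 221 of 361 and 171 of 336 windows did, while the last window of the transcript differed at 12 and 14 bases. Both read lengths are tried because the labels give 50 and the study's methods 75. The split of reads between the copies is therefore uncertain to an extent not measured here, although the lowest *Hamp2* share was 0.409%. The long noncoding gene *Gm44662* is annotated over both genes on the opposite strand, and whether the counting used strand was not given in the sources used here.

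**Figure D2:**
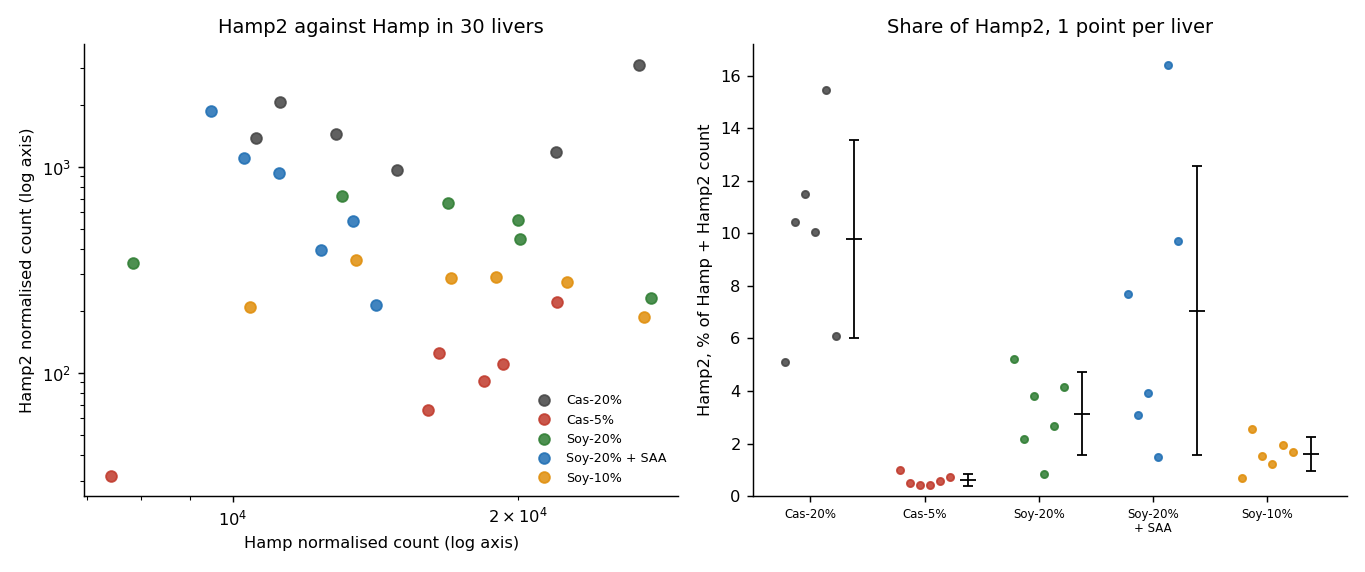
Left, *Hamp2* against *Hamp* normalised counts on log axes, 1 point per liver, coloured by diet. Right, the *Hamp2* percentage of *Hamp* and *Hamp2* reads in each liver by diet, with the mean and SD of 6 livers in black; Cas-5% livers sit between 0.409% and 0.998% and Cas-20% livers between 5.12% and 15.5%.

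Interleukin 6 and STAT3 drive the acute phase genes as well as hepcidin, so that list was set beside it. In Cas-5% against Cas-20% edgeR called 12 of 18 acute phase genes, 4 higher and 8 lower, where 24.9% of all genes were called. The fall of the acid glycoprotein *Orm1* was -3.38 ± 0.28 and that of the serum amyloid *Saa1* was -1.42 ± 0.26 on the log2 scale, both named after their values were seen. Of the 4 higher genes *Itih4*, named likewise, rose by 0.66 to 0.77 with single livers left out (edgeR adjusted p up to 6.9e-05). *Lbp*, also higher, was lost without any 1 of 7 livers (edgeR adjusted p up to 0.086). Of the lower genes *Crp* was lost without any 1 of 5 (up to 0.074) and *Hpx* without Cas-5% liver 4 (0.052). They too were named after their values were seen. *Hp*, *Hpx* and *Lcn2* are also on the iron lists given below, so those counts share genes. The summed level of the 18 genes was 178440 to 212620 on Cas-20% and 163120 to 203310 on Cas-5%. In Soy-10% against Soy-20% + SAA 1 of 18 was called, higher, where 17% of all genes were called. The part of these genes in the fall of *Hamp2* was not tested.

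*Id1* and *Smad7* are direct targets of the BMP-SMAD signal that also drives hepcidin, and *Smad7* in turn inhibits it. *Id1* lies at chr2:152736251-152737410 on the plus strand, and *Smad7* on chromosome 18. Neither was called in any comparison. *Id1* ran from 199 to 403 normalised counts on Cas-20% (median 258) and from 245 to 546 on Cas-5% (median 323), a log2 fold change of 0.41 ± 0.18 (n = 6 and 6, edgeR adjusted p = 0.11). It was called without Cas-20% liver 1, the highest of its diet (0.55, edgeR adjusted p = 0.026). On the soy diets *Id1* ran from 136 to 449 (Soy-20%), 122 to 312 (Soy-20% + SAA) and 168 to 347 (Soy-10%).

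*Smad7* ran from 109 to 141 normalised counts on Cas-20% (median 122) and from 111 to 213 on Cas-5% (median 140), a difference of 0.25 ± 0.14 on the log2 scale (n = 6 and 6, edgeR adjusted p = 0.22). Soy-10% livers held 82.3 to 147 (median 99.4), and differed from Cas-5% livers by -0.47 ± 0.16 (edgeR adjusted p = 0.074, and 0.038 without Soy-10% liver 5). Soy-20% + SAA livers held 49.3 to 154, with 49.3 to 112 in livers 3 to 6 and 98.3 to 154 in livers 1 and 2. The last 200 bases of the *Smad7* transcript have 27% GC, the least of these genes.

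Within diets *Id1* moved with *Hamp* only weakly. Over 30 livers, as deviations from the diet mean of log2 CPM (read counts scaled to library size), Pearson's r was 0.48 (permutation p = 0.014 within diets, 100000 resamples, two-sided, adjusted p = 0.041 over 3 relations) and Spearman's rho was 0.37 (permutation p = 0.053, adjusted 0.16). Without the 2 livers farthest from the median of *Hamp*, Cas-5% liver 4 and Soy-20% liver 6, r fell to 0.24. Leaving out the most extreme livers also narrows the range of *Hamp*, which can lower r by itself. The fall therefore cannot show how far the pooled relation over 30 livers rests on those livers. By diet, with 6 livers each, r was 0.88 (Soy-20% + SAA), 0.79 (Soy-20%), 0.55 (Cas-5%), 0.48 (Cas-20%) and -0.28 (Soy-10%). The r of *Hamp* with *Smad7* was 0.24 (permutation p = 0.16, adjusted 0.16; rho 0.21, permutation p = 0.26) and with *Tfrc* -0.30 (permutation p = 0.16, adjusted 0.16; rho -0.18, permutation p = 0.39). Without those 2 livers they were 0.082 and -0.18.

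**Figure D3:**
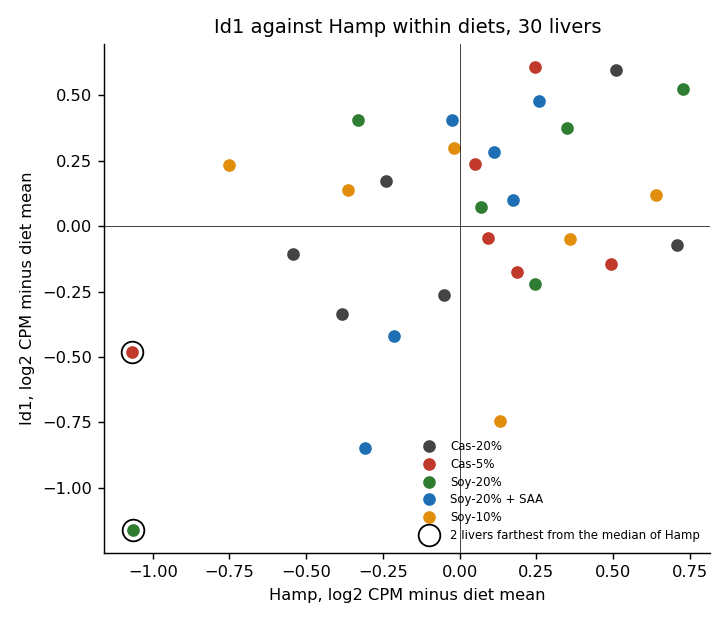
Deviation of *Id1* against deviation of *Hamp* from the mean of the liver's own diet, both in log2 CPM, 1 point per liver coloured by diet. The 2 ringed livers are the farthest from the median of *Hamp*; r is 0.48 with them and 0.24 without them.

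The genes whose within-diet pattern was most like that of *Hamp*, over 30 livers and 12033 genes with a mean of at least 10 counts, were *Gm4673* (r = 0.76), *Mta3* (0.70), *Slc16a10* (0.68), *Apoa1* (0.64) and *Tctex1d2* (0.63). *Gm4673* is annotated as an antisense transcript on the plus strand, 12877 bases from the 5′ end of *Hamp* (GENCODE M21, chr7:30956909-30961619). *Id1* ranked at place 117 and *Hamp2* at place 3128 of that order, the latter with r = 0.097. The gene most like *Hamp2* was *S100a11* (r = 0.78), a likeness looked up after the values of *Hamp2* were seen. These values are descriptions, and the points share their libraries and depth.

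Ferroportin, the only known cellular iron exporter and the target of hepcidin, was highest on Soy-10%. *Slc40a1* (chr1:45908068-45926523, minus strand) ran from 1782 to 2074 normalised counts on Soy-10% (median 1933) and from 815 to 1450 on Soy-20% + SAA (median 984), with no overlap. The log2 fold change was 0.84 ± 0.13 (SE, n = 6 and 6, edgeR adjusted p = 0.0015). Soy-20% + SAA livers 3 to 6 held 815 to 1107 and livers 1 and 2 held 1345 to 1450. Without livers 3 to 6 the difference was 0.45 (edgeR adjusted p = 0.012), and with the GC trend in the model it was 0.47 (edgeR adjusted p = 0.0020).

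Soy-10% livers also lay above all 6 Cas-5% livers, which held 1443 to 1679 (median 1631). That difference was 0.26 ± 0.06 on the log2 scale (n = 6 and 6, edgeR adjusted p = 0.011, and 0.25 with all 30 livers in the fit). Soy-20% livers held 1325 to 1869 (median 1471), and 4 of 6 Soy-10% livers were above them all, a difference of 0.34 ± 0.08 (edgeR adjusted p = 0.048) that was lost without any 1 of Soy-20% livers 1, 2, 3 or 6 or any Soy-10% liver (edgeR adjusted p up to 0.13), with the GC trend in the model (0.074), with no filter on low counts (0.060) and with all 30 livers in the fit (0.35). In the casein pair *Slc40a1* went from 908 to 1599 (median 1339) to the Cas-5% values above, a difference of 0.34 ± 0.12 just short of the threshold (edgeR adjusted p = 0.053; DESeq2 adjusted p = 0.046). It passed without Cas-20% liver 5 (edgeR adjusted p = 0.037) or 6 (0.020).

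Macrophages of the liver, the Kupffer cells, also make ferroportin. The 8 Kupffer genes summed to 2744 to 4791 normalised counts on Soy-10%, 2714 to 3611 on Soy-20% + SAA, 2444 to 3741 on Cas-5% and 2313 to 3960 on Cas-20%. In Soy-10% against Soy-20% + SAA edgeR called 1 of the 8, the scavenger receptor *Marco* (named after its values were seen), where 17% of all genes were called. *Marco* was higher by 2.35 ± 0.59 on the log2 scale (edgeR adjusted p = 0.016), by 1.29 without Soy-10% liver 6, and the call was lost with the GC trend in the model (edgeR adjusted p = 0.15) and without Soy-20% + SAA livers 3 to 6 (0.27). Their part in the *Slc40a1* values was not tested.

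Transferrin receptor 1, which takes up transferrin-bound iron, was the least counted of these genes and was lower on Cas-5%. *Tfrc* (chr16:32608920-32632794, plus strand) ran from 59.8 to 138 normalised counts on Cas-20% (median 85.6) and from 50.0 to 69.9 on Cas-5% (median 62.2), and 3 of 6 Cas-5% livers lay below all Cas-20% livers. The log2 fold change was -0.60 ± 0.19 (SE, n = 6 and 6, edgeR adjusted p = 0.027). It was lost with the GC trend in the model (-0.46, edgeR adjusted p = 0.15), with all 30 livers in the fit (edgeR adjusted p = 0.060) and without any 1 of Cas-20% livers 1 or 3 or Cas-5% livers 4 or 5 (edgeR adjusted p up to 0.064). In the soy diets *Tfrc* ran from 54.8 to 173 (Soy-20%), 51.8 to 107 (Soy-20% + SAA) and 52.1 to 90.0 (Soy-10%), with no call.

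Young red cells hold much transferrin receptor 1, and the red blood cell genes moved with it in the casein pair. Of 5 such genes edgeR called 4 lower on Cas-5%, where 13.3% of all genes were called lower, with a median log2 fold change of -0.62, and their summed level was 15728 to 34944 normalised counts on Cas-20% and 11503 to 19812 on Cas-5%. In the casein pair *Hbb-bs* was lost without any 1 of 5 livers (edgeR adjusted p up to 0.073) and *Hba-a2* without any 1 of 3 (up to 0.059). The other calls of the casein pair held with each liver left out (up to 0.047). The 5 red blood cell genes gave 4 calls in Soy-20% + SAA against Cas-20%, all lower, where 2.43% of all genes were called and *Tfrc* was not (-0.41 ± 0.23, edgeR adjusted p = 0.26). Those 4 calls (*Hba-a1*, *Hba-a2*, *Hbb-bs* and *Hbb-bt*) were lost with the GC trend in the model (edgeR adjusted p = 0.23 to 0.29) and without Soy-20% + SAA livers 3 to 6 (0.57 to 0.61), at differences of -0.84 to -0.72. The part of red cells in the *Tfrc* values was not tested.

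*Tfr2*, the hepatocyte receptor that senses transferrin iron upstream of hepcidin (chr5:137569840-137587481), varied little between livers. It ran from 1192 to 1342 normalised counts on Cas-5% (median 1258), the lowest diet by its mean, to 1334 to 1621 on Soy-20% + SAA (median 1449), the highest. None of the 6 pairs of diets compared was called. Over the 5 diets it passed (edgeR adjusted p = 0.028), but not without Soy-20% + SAA livers 3 to 6 (edgeR adjusted p = 0.52), with the GC trend in the model (0.42), or without any 1 of Cas-5% livers 3 or 5 or Soy-20% + SAA livers 4 or 6 (up to 0.090).

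The iron-responsive elements of these mRNAs are shown because they tie the storage, export and uptake genes to the same regulators. Transcripts of GENCODE M21 (GRCm38) were searched for a 17-base hairpin with a bulged C, 5 paired bases on each side and the loop CAGTGN (N other than G), and 205 of 21901 transcripts (0.936%) held one. Capitals mark the loop, and letters are given as DNA on the gene's strand.
Fth1, 5′ UTR, chr19:9982738-9982754: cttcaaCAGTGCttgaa
Ftl1, 5′ UTR, chr7:45459785-45459801: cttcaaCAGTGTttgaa
Slc40a1, 5′ UTR, chr1:45925471-45925487: cagctaCAGTGTtagct
Tfrc, 3′ UTR, chr16:32631225-32631241: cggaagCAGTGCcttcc
Tfrc, 3′ UTR, chr16:32631604-32631620: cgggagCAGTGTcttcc
Tfrc, 3′ UTR, chr16:32631669-32631685: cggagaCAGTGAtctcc
Tfrc, 3′ UTR, chr16:32631716-32631732: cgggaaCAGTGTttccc
In the 5′ UTR such an element blocks translation when iron is low, and in the 3′ UTR of *Tfrc* it protects the mRNA. Of the other genes with a row, *Smad7* was left out of this search by gene, and the rest gave no match to this pattern.

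The ferritin chains store iron, *Fth1* with the iron-oxidising site and *Ftl1* without it, and both were higher on Soy-10% than on Cas-5%. *Fth1* lies at chr19:9980598-9985098 and *Ftl1* at chr7:45457944-45459884. *Fth1* ran from 19745 to 23743 normalised counts on Soy-10% (median 21787) and from 17769 to 19204 on Cas-5% (median 18956), and *Ftl1* from 12144 to 16342 (median 13627) and from 8386 to 10762 (median 9935). Neither gene's ranges overlapped. The log2 differences were 0.21 ± 0.06 for *Fth1* (n = 6 and 6, edgeR adjusted p = 0.031) and 0.46 ± 0.08 for *Ftl1* (edgeR adjusted p = 0.00099). The *Ftl1* call held in every alternative run, while that of *Fth1* was lost with all 30 livers in the fit (edgeR adjusted p = 0.16) and without any 1 of 6 livers (Cas-5% livers 2 and 4 and Soy-10% livers 2, 3, 5 and 6, edgeR adjusted p up to 0.077).

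Neither ferritin gene was called for casein or soy restriction. *Ftl1* ran from 9440 to 15601 on Cas-20% (median 11770), with a Cas-5% difference of -0.25 ± 0.11 (n = 6 and 6, edgeR adjusted p = 0.11, and 0.046 without Cas-20% liver 3), and *Fth1* from 16918 to 24995 (median 19533), with a difference of -0.14 ± 0.09 (edgeR adjusted p = 0.30). On Soy-20% + SAA *Ftl1* ran from 9906 to 17387, with 12902 to 17387 in livers 3 to 6 and 9906 to 12884 in livers 1 and 2, and its transcript end has 55% GC, the most of these genes. The sign of its soy difference (-0.04 ± 0.12, edgeR adjusted p = 0.84) turned without those livers (0.26) and with the GC trend in the model (0.25).

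**Figure D4:**
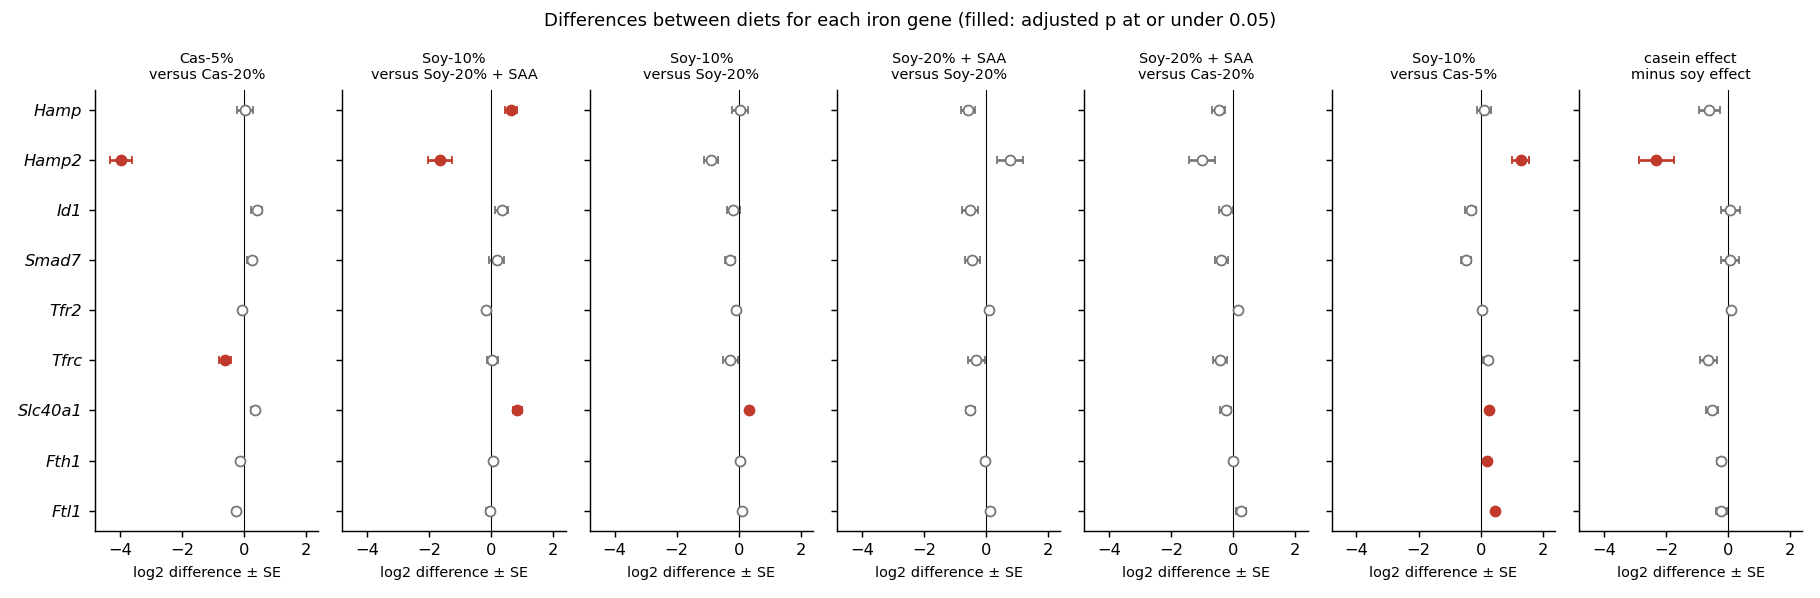
Log2 differences (horizontal axes) of the 9 iron genes between diets, 1 panel per comparison, with SE bars; filled red points have an edgeR adjusted p of 0.05 or less. *Hamp2* is at -3.96 in the casein panel and *Slc40a1* at 0.84 in the panel of Soy-10% against Soy-20% + SAA.

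Counted together, 2 of the 9 genes were called in Cas-5% against Cas-20%, both lower (*Hamp2* and *Tfrc*), where edgeR called 24.9% of all 12076 genes (11.6% higher and 13.3% lower). In Soy-10% against Soy-20% + SAA 3 of 9 were called, *Hamp* and *Slc40a1* higher and *Hamp2* lower, where 17% of 11983 genes were called (8.51% higher and 8.47% lower). *Slc40a1* was the 1 of 9 called in Soy-10% against Soy-20%, where 0.866% of genes were. The controls gave 0 of 9 in Soy-20% + SAA against Soy-20%, where 0.00838% of genes were called, with 2 of 9 at an unadjusted p under 0.05 and 1 by DESeq2 (*Slc40a1*). They gave 0 of 9 in Soy-20% + SAA against Cas-20%, where 2.43% of genes were called, with 2 of 9 at an unadjusted p under 0.05 and 0 by DESeq2.

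In Soy-10% against Cas-5%, the restricted diets with like methionine, 4 of 9 were called, all higher (*Hamp2*, *Slc40a1*, *Fth1* and *Ftl1*), where 10.7% of genes were called (6.14% higher and 4.59% lower). In the casein effect less the soy effect 1 of 9 was called, *Hamp2*, where 8.69% of genes were (3.2% with a positive and 5.49% with a negative difference). Over the 5 diets 4 of 9 were called (*Hamp2*, *Slc40a1*, *Ftl1* and *Tfr2*), where 43.4% of genes were. The casein count is near the share of all genes called, and the 9 genes were not tested as a group. The median log2 fold change of the 9 genes was -0.062 for casein and 0.067 for soy with Soy-20% + SAA as the control, against 0.016 and -0.010 over all genes tested. Comparisons that share the Soy-10%, Soy-20% + SAA or Cas-5% livers are not independent of each other.

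The other genes of the pathway were read from 4 lists, of which 71 genes were tested in the casein pair: BMP-SMAD and hepcidin control (28), iron transport and storage (17), heme and hemoglobin iron (12), and iron sensing and iron-sulfur assembly (14). In Cas-5% against Cas-20% edgeR called 13 higher and 11 lower, 33.8% of the 71, where 24.9% of all genes were called (11.6% higher and 13.3% lower), with a median log2 fold change of -0.034. With the GC trend in the model 20 list genes were called, and 17 with all 30 livers in the fit. With a single liver left out 18 to 24 were. In the hepcidin control list 7 were higher and 2 lower. Of these, *Bmp2* and *Furin* were each lost without any 1 of 9 livers and *Bmp5* without any 1 of 10 (edgeR adjusted p up to 0.11). Those genes were named after their values were seen, and the other calls of that list held with each liver left out. *Hjv*, which encodes hemojuvelin, the co-receptor that raises hepcidin transcription, fell by 0.81 ± 0.07 on the log2 scale, from 1113 ± 110 to 630 ± 39.4 normalised counts (SD, n = 6). *Fgl1*, a secreted hepatocyte protein described as a BMP antagonist, rose by 1.54 ± 0.11, from 2120 ± 334 to 6118 ± 671.

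The SMAD gene *Smad9* rose by 1.35 ± 0.13 on Cas-5%, from 42.3 ± 10.1 to 106.5 ± 11 normalised counts, and *Atoh8*, a transcription factor that responds to BMP, by 1.25 ± 0.18, from 95.7 ± 25.6 to 226 ± 51.5. *Il6ra*, the interleukin 6 receptor, rose by 0.90 ± 0.13, and *Blvrb*, a biliverdin reductase of heme breakdown, by 0.73 ± 0.09. The edgeR adjusted p of *Hjv*, *Fgl1*, *Smad9*, *Atoh8*, *Il6ra* and *Blvrb* was at most 8.3e-05. The other lists gave 3 higher and 3 lower (transport and storage), 2 and 2 (heme), and 1 and 4 (sensing and assembly). Of these, *Fbxl5*, the 1 higher sensing gene, was lost without any 1 of 9 livers (edgeR adjusted p up to 0.11). *Hmox1* was lost without any 1 of 6, *Scara5* of 2, and *Slc11a2* and *Hpx* without 1 liver each. Those genes were named after their values were seen, and the other calls of these lists held with each liver left out. The endothelium, a source of BMP2 and BMP6, had 3 of 7 marker genes higher, where 11.6% of all genes were. Its sums were 2630 to 3015 normalised counts on Cas-20% and 2960 to 3303 on Cas-5%. Stellate cells had 3 of 5 higher, with sums of 3807 to 4387 and 4185 to 5537. The endothelial *Kdr* was lost without any 1 of 3 livers and the stellate *Dcn* without any 1 of 4 (edgeR adjusted p up to 0.058). Both were named after their values were seen. The part of these cells in the list values was not tested.

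For soy the lists held 6 higher and 6 lower of 71 in Soy-10% against Soy-20% + SAA (16.9%, median 0.018), near the 17% of all genes called. Of these 12 calls 2 held with the GC trend in the model and the same 2, *Hjv* and *Blvrb*, without Soy-20% + SAA livers 3 to 6. With a single liver left out 6 to 19 list genes were called, with 6 without Soy-20% + SAA livers 4, 5 or 6 or Soy-10% livers 2 or 5, 7 without Soy-10% liver 1, and 19 without Soy-20% + SAA liver 1 or 2.

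*Hjv* fell by 0.73 ± 0.07 on Soy-10% (edgeR adjusted p = 0.00012; -0.61 with the GC trend and -0.60 without the 4 livers), and *Blvrb* rose by 0.51 ± 0.09 (0.65 and 0.64). Both also passed in the casein pair in the same direction, with livers that the soy pair does not share. *Hjv* was the 1 list gene of 70 called against Soy-20%, at -0.42 ± 0.10 (edgeR adjusted p = 0.048), where 0.866% of all genes were called. That call was lost with the GC trend in the model (0.090), with no filter on low counts (0.055) and without any 1 of Soy-20% livers 2 or 4 or any Soy-10% liver (up to 0.11).

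*Smad9* (0.89 ± 0.19), *Fgl1* (1.16 ± 0.28) and *Steap2*, a metal reductase (0.89 ± 0.20), passed in Soy-10% against Soy-20% + SAA but not with the GC trend in the model (edgeR adjusted p = 0.11, 0.23 and 0.16) or without the 4 livers (0.15, 0.31 and 0.29). *Fgl1* was at 0.75 without Soy-10% liver 6. *Iscu*, the scaffold of iron-sulfur clusters, stood at 237 ± 33.9 normalised counts on Soy-10% and 237 ± 25.3 on Soy-20%, against 104 ± 55.2 on Soy-20% + SAA (SD, n = 6). Its difference between Soy-10% and Soy-20% + SAA was 1.19 ± 0.26 on the log2 scale, and the call was lost with the GC trend in the model (0.58, edgeR adjusted p = 0.11) and without the 4 livers (0.45, 0.14).

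**Figure D5:**
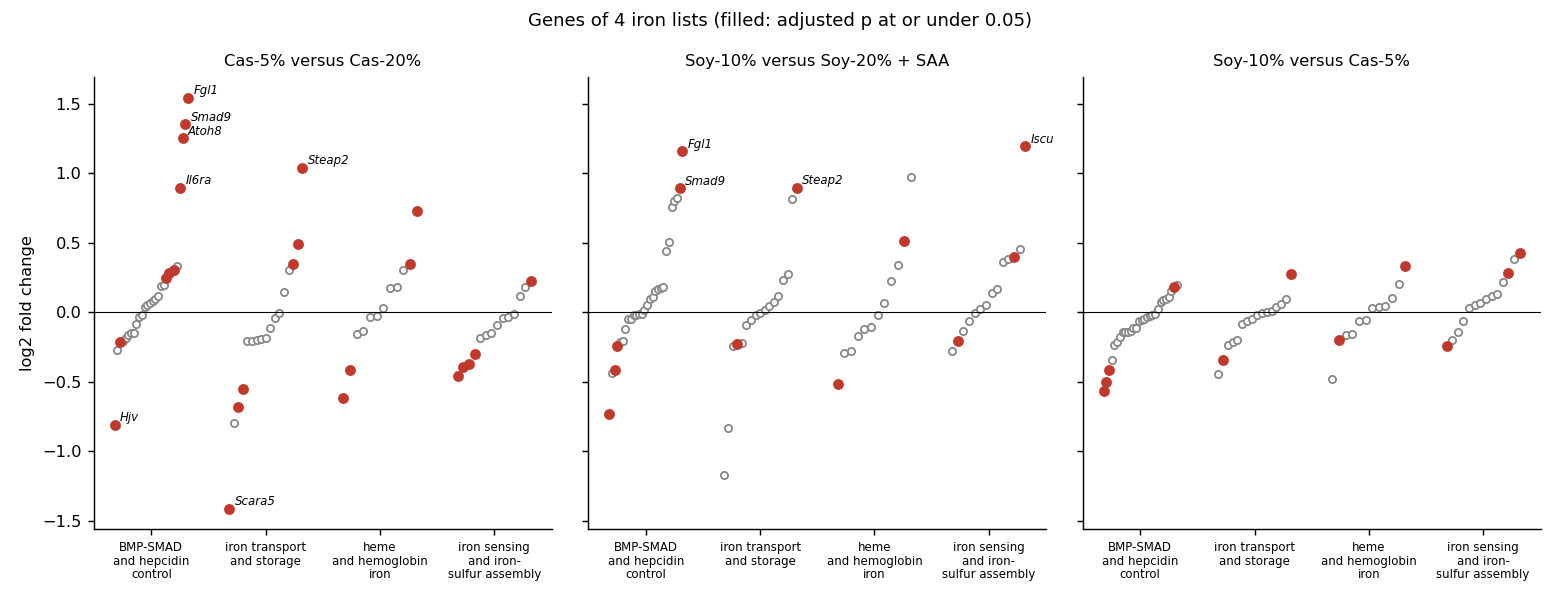
Log2 fold changes (vertical axis) of the genes of 4 iron lists (horizontal axis) in 3 comparisons, 1 point per gene ordered by size within its list; filled red points have an edgeR adjusted p of 0.05 or less, and those beyond 0.75 in size are named. *Fgl1* is at 1.54 and *Hjv* at -0.81 in the casein panel.

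Between the restricted diets, Soy-10% against Cas-5%, 5 list genes were higher and 6 lower of 70 (15.7%, median -0.029), where 10.7% of all genes were called. With all 30 livers in the fit 6 were called. *Glrx5*, a glutaredoxin of iron-sulfur assembly, was higher by 0.42 ± 0.07 and the mitochondrial iron importer *Slc25a37* by 0.28 ± 0.06 (edgeR adjusted p = 0.0076, and 0.089 with all 30 livers in the fit). Lower on Soy-10% were the ferroxidase *Cp* by -0.35 ± 0.06, *Il6ra* by -0.50 ± 0.11, the ligand *Bmp4* by -0.41 ± 0.09 (edgeR adjusted p = 0.0078, and 0.19 in that fit) and *Atoh8* by -0.57 ± 0.13. In Soy-20% + SAA against Cas-20% 2 of 71 were called, where 2.43% of all genes were, both lower, *Ireb2* (-0.57 ± 0.13) and the reductase *Steap3* (-0.55 ± 0.13). Both calls were lost with the GC trend in the model (-0.30 and -0.42), without Soy-20% + SAA livers 3 to 6 (-0.23 and -0.42) and without any 1 of 10 single livers (all but Soy-20% + SAA livers 1 and 2). In Soy-20% + SAA against Soy-20% 0 of 71 were called by edgeR, 22 had an unadjusted p under 0.05 and 5 were called by DESeq2.

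The casein effect less the soy effect was called for 9 of 71 list genes, 4 positive and 5 negative (12.7%), where 8.69% of all genes were called. It was called for 7 with the GC trend in the model, for 3 without Soy-20% + SAA livers 3 to 6, for 5 with Soy-20% as the soy control, and for 15 without Soy-20% + SAA liver 1. *Atoh8* (1.19 ± 0.26), *Il6ra* (0.72 ± 0.20), *Hmox2*, a heme oxygenase (0.44 ± 0.12), and *Cp* (0.37 ± 0.10) were positive. *Ireb2*, which encodes iron regulatory protein 2 (-0.86 ± 0.16), and *Iscu* (-1.35 ± 0.33) were negative, with edgeR adjusted p of at most 0.025 for the 6. *Atoh8*, *Il6ra* and *Cp* were also called in both of the first alternatives, while *Hmox2* was lost in both (edgeR adjusted p = 0.12 and 0.25) and *Ireb2* (0.055) and *Iscu* (0.27) without the 4 livers. With Soy-20% as the control *Il6ra* (0.13), *Hmox2* (0.19) and *Iscu* (0.75) were not called. Over the 5 diets 37 of 71 list genes were called (52.1%), where 43.4% of all genes were, and 24 without the 4 livers.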

How the data were processed

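Liver RNA of 30 mice was sequenced from transcript 3′ ends (Lexogen QuantSeq, forward reads). The authors counted reads per gene with the QuantSeq pipeline 2.3.6 FWD and deposited a table of raw counts. They also deposited a table of normalised counts (a signal), which equal the counts divided by DESeq2's median-of-ratios size factors (0.759 to 1.30), as checked here. The submitters' processing notes name R 4.0.3, DESeq2 1.30 and builds GRCm38 and mm10. Aligner settings and strand were not given in the sources used here.

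Counts were tested with edgeR 4.0.16 in R 4.3.3 (filterByExpr, TMM scaling, quasi-likelihood F test, Benjamini-Hochberg adjustment over all genes tested, called at 0.05 or less). Each fit used only the diets compared, since the Soy-20% + SAA libraries varied more than the others. The study itself tested with DESeq2. DESeq2 1.42.0 was an alternative, beside its size factors, no filter, a replicate block, all 30 livers in 1 fit, a GC covariate, Soy-20% + SAA livers 3 to 6 left out, each liver left out and Soy-20% as control. Normalised counts are given for single livers. Scripts were tested on simulated data. Symbols missing for 1718 rows were filled from GENCODE M21 for 1684. Each library was 1 mouse, and p-values measure the spread between these mice.

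The genes and lists were chosen with earlier results of these data known. Named are all members, up to 6 list genes of lowest adjusted p per comparison, and the 5 genes most like *Hamp*, beside those said in the text to be named after their values were seen. Of the lists, *Erfe*, *Cybrd1*, *Ftmt* and *Ltf*, and the markers *Fcn3* and *Amy2a5*, were not analysed here. Same-numbered livers did not pair (correlations of deviations -0.155 to 0.183, at most 2 of 6 pairs over 0.1).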

Additional observations from a re-analysis of the deposited data

Results flagged for a closer look

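In Soy-10% liver 6 *Ftl1* stood at 16342 normalised counts, far from the other 5 livers of its diet, of which the nearest was at 13646. The gap was 0.642 of the whole range, against a critical value of 0.625 for 6 livers. It was the 1 such case among 45 groups of livers tested, and chance gives about 1 in 20.

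For 10 genes the casein effect differed from the soy effect (Soy-20% + SAA as the soy control) by edgeR's test of the difference itself. *Hamp2* had the most negative difference, -2.31 on the log2 scale. Among the list genes *Atoh8* stood at 1.19, *Il6ra* at 0.72, *Hmox2* at 0.44 and *Cp* at 0.37. Negative differences were those of *Steap4* (-1.37), a metal reductase, *Iscu* (-1.35), *Ireb2* (-0.86), the cytosolic aconitase and iron regulatory protein 1 gene *Aco1* (-0.85), and the sulfur donor *Nfs1* (-0.67). Without Soy-20% + SAA livers 3 to 6 the 5 negative list genes stood at -0.61 (*Iscu*), -0.53 (*Ireb2*), -0.47 (*Steap4*), -0.32 (*Aco1*) and -0.27 (*Nfs1*), none called. In Soy-20% + SAA the levels of *Steap4* ran from 89.1 to 517 normalised counts, of *Iscu* from 44.1 to 186, of *Aco1* from 288 to 917 and of *Nfs1* from 203 to 400.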

How the results depend on the processing

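Of 423 differences of single genes between diets under 8 alternatives, 388 kept their direction and side of the threshold, 13 lost a call, 6 gained one and 16 changed sign, all 16 among differences that were not called. The *Hamp2* calls for casein and for the casein effect less the soy effect, and the *Ftl1* call in Soy-10% against Cas-5%, held in every alternative run and with each liver left out (*Hamp2* -4.30 to -3.69 and -2.70 to -2.04; *Ftl1* 0.40 to 0.49).

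Sign changes in Soy-10% against Soy-20% + SAA were *Smad7* (-0.28 with the GC covariate, -0.24 without Soy-20% + SAA livers 3 to 6), *Ftl1* (0.25 and 0.26) and *Tfrc* (-0.044 with the covariate). In Soy-20% + SAA against Soy-20% they were *Ftl1* (-0.15 and -0.15). In Soy-20% + SAA against Cas-20% they were *Slc40a1* (0.089 and 0.15), *Fth1* (-0.13 and -0.18, and -0.00396 with no filter) and *Ftl1* (-0.00204 and -0.054), and *Id1* (0.015) and *Smad7* (0.021) without the 4 livers. With a liver left out the signs of *Hamp* (-0.072 to 0.23 for casein, -0.097 to 0.23 in Soy-10% against Soy-20%, -0.036 to 0.23 in Soy-10% against Cas-5%), *Tfrc* (-0.041 to 0.19 in Soy-10% against Soy-20% + SAA, -0.38 to 0.042 in Soy-10% against Soy-20%), *Ftl1* (-0.12 to 0.026 in Soy-10% against Soy-20% + SAA), *Fth1* (-0.085 to 0.030 and -0.066 to 0.073 in the control pairs), *Tfr2* (-0.0030 to 0.050 in Soy-10% against Cas-5%), *Id1* (-0.083 to 0.22) and *Smad7* (-0.12 to 0.21, both in the casein effect less the soy effect) were not fixed.

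With the GC covariate members called fell from 2 to 1 for casein, from 3 to 1 in Soy-10% against Soy-20% + SAA and from 1 to 0 in Soy-10% against Soy-20%. With all 30 livers in 1 fit they were 1 for casein, 0 in Soy-10% against Soy-20%, 1 in Soy-20% + SAA against Soy-20% and 1 in Soy-10% against Cas-5% (from 4). DESeq2 called 1 in Soy-20% + SAA against Soy-20%, and no filter left 0 in Soy-10% against Soy-20%. With the replicate block 3 were called for casein, 3 in Soy-10% against Soy-20% + SAA, 0 in Soy-10% against Soy-20% (*Slc40a1* lost, edgeR adjusted p = 0.090) and 5 in Soy-10% against Cas-5%. The numbers pair no animals, and the block left 141 of 291 genes in Soy-20% + SAA against Cas-20%.

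All genes called also moved. In Soy-10% against Soy-20% + SAA they were 369 with the GC covariate, 3077 with all 30 livers and 317 without the 4 livers, from 2035. In Soy-10% against Soy-20% they were 228 by DESeq2 and 62 with all 30 livers, from 103. In Soy-20% + SAA against Soy-20% edgeR's 1 became 885 by DESeq2, 2 with DESeq2 size factors and with no filter, 1793 with all 30 livers, and 0 with the covariate or without the 4 livers. In Soy-20% + SAA against Cas-20% 291 became 1155 by DESeq2, 5 with the covariate, 2331 with all 30 livers and 3 without the 4 livers. The casein effect less the soy effect gave 610 with the covariate and 296 without the 4 livers, from 1089, and the 5 diets gave 3542 and 3433, from 5450. The cause was not tested.

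With each liver left out, members called ranged from 1 to 3 for casein, 2 to 4 in Soy-10% against Soy-20% + SAA, 0 to 2 against Soy-20%, 0 to 1 and 0 to 0 for the controls against Soy-20% and Cas-20%, 3 to 4 in Soy-10% against Cas-5%, 1 to 2 for the casein effect less the soy effect and 3 to 5 over the 5 diets. All genes called ranged from 2601 to 2888, 1219 to 3119, 50 to 146, 0 to 1587, 9 to 1817, 981 to 1317, 719 to 1941 and 4626 to 6074 in that order. Moves over 1.5 times came, in Soy-10% against Soy-20% + SAA, without Soy-20% + SAA livers 5 (1219), 6 (1222) or 1 (3119) or Soy-10% livers 2 (1314) or 5 (1339), and in the casein effect less the soy effect without Soy-20% + SAA livers 1 (1941) or 4 (719). In Soy-10% against Soy-20% they came without Soy-20% livers 1, 2 or 4 or Soy-10% livers 2, 3 or 5 (50 to 68). Without Soy-20% + SAA liver 1 or 2 the control pairs gave 1587 and 1118 (against Soy-20%) and 1817 and 1247 (against Cas-20%), and without any other single liver at most 3 and 79. *Id1* passed over the 5 diets without Soy-20% liver 6 (edgeR adjusted p = 0.042), and *Smad7* without Soy-20% + SAA liver 1 (0.0094) or Soy-10% liver 5 (0.047). *Slc40a1* passed without Soy-20% + SAA liver 1 or 2 in Soy-20% + SAA against Soy-20% (0.014 and 0.034) and in the casein effect less the soy effect (0.025 and 0.047), and *Tfr2* without liver 1 in Soy-10% against Soy-20% + SAA (0.036). The r of *Hamp* with *Id1* was 0.46 without the 4 livers (adjusted permutation p = 0.14) and 0.50 on log2 normalised counts plus 1. Depth bears most on the genes of lowest count, and *Tfrc* held 50.0 to 69.9 normalised counts on Cas-5%.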

Other observations

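The summed level of the 14 genes of iron sensing and iron-sulfur assembly was 9362 to 10126 normalised counts on Cas-5%, below the 10210 to 11901 of Cas-20% in every liver, and 10328 to 11063 on Soy-10% against 9963 to 11703 on Soy-20% + SAA. The summed level of the 12 heme and hemoglobin iron genes was 38811 to 47607 on Cas-5% and 46559 to 72171 on Cas-20%. A sum mostly follows the genes with the most counts. By gene, 2 of the 12 were called higher on Cas-5% and 2 lower, where 24.9% of all genes were called. The median log2 fold change of the 12 was -0.00059. The heme oxygenase *Hmox1* fell on Cas-5% (log2 fold change -0.62 ± 0.21, edgeR adjusted p = 0.037) and on Soy-10% against Soy-20% + SAA (-0.51 ± 0.16, edgeR adjusted p = 0.041), and was named after its values were seen. The casein call was lost with the GC covariate (-0.23, edgeR adjusted p = 0.36), with all 30 livers in the fit (0.079) and without any 1 of 6 livers (Cas-20% livers 2 and 3 and Cas-5% livers 1, 2, 4 and 6, up to 0.083). The soy call was lost with the covariate (-0.26, edgeR adjusted p = 0.52), without Soy-20% + SAA livers 3 to 6 (-0.16, 0.76), with all 30 livers (0.14) and without any 1 of 8 livers (Soy-20% + SAA livers 3 to 6 and Soy-10% livers 1, 2, 3 and 5, up to 0.087).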
